A study of Mus musculus with 8 samples.

Results

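The genes described here encode the digestive enzymes of the lysosome, the cofactors those enzymes need, the proteins of the lysosomal membrane and the transcription factor TFEB. They were chosen by name: 33 genes, out of 18193 that carry a single symbol on the array, whose probe sets are annotated to exactly 1 of the chosen symbols. All 33 were found, with 73 probe sets between them out of 45037 on the array that are not controls. Monocytes came from the blood of C57Bl/6 mice aged 12 weeks and were separated by sorting into a Gr1hi (Ly-6chi) and a Gr1lo (Ly-6clo) subset. A sort used leukocytes pooled from 5 mice, so no sample is a single animal. Sorting was done 4 times, which gave 4 samples per subset, each on 1 Affymetrix array. The labels name no treatment or mutation, and the human monocytes that the series also covers were not analysed here.

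Lysosomes are acid compartments in which enzymes break down what a cell has taken up or set aside for recycling. Glycosidases and sulfatases take sugar chains apart from their ends, lipid enzymes work with small lipid-binding cofactors, and membrane proteins shield the compartment wall and carry the products out. Monocytes and macrophages, which ingest microbes and dying cells, are known for a large lysosomal system. TFEB and its relatives MITF, TFE3 and TFEC bind E-box motifs in the promoters of many of these genes.

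More of these genes were higher in Gr1hi than in Gr1lo monocytes, and most of the differences were under 2-fold. With each gene represented by its brightest tested probe set, 15 of 33 were called higher in Gr1hi and 5 higher in Gr1lo by limma at a Benjamini-Hochberg adjusted p under 0.05, and 13 were not called. The 15 include Gla, which was tested only through its Gr1hi arrays. Among all 11546 tested genes 18.5% were called higher in Gr1hi and 14.1% higher in Gr1lo, together 32.5%, against 60.6% of the members. For 21 of 33 members the ranges of the Gr1hi and Gr1lo arrays were fully apart, against 33.9% of all tested genes. The median difference of the members was -0.19 on the log2 scale, Gr1lo minus Gr1hi as in every signed difference given here, and that of all tested genes was -0.01. A call with a difference of at least 25% was made for 14 members, 12 toward Gr1hi and 2 toward Gr1lo, against 22.2% of all tested genes. Galns, a sulfatase, had the largest difference of the representing probe sets and the only one over 2-fold. In sorted bulk RNA, fewer cells of a kind and less RNA per cell cannot be told apart.

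**Figure D1:**
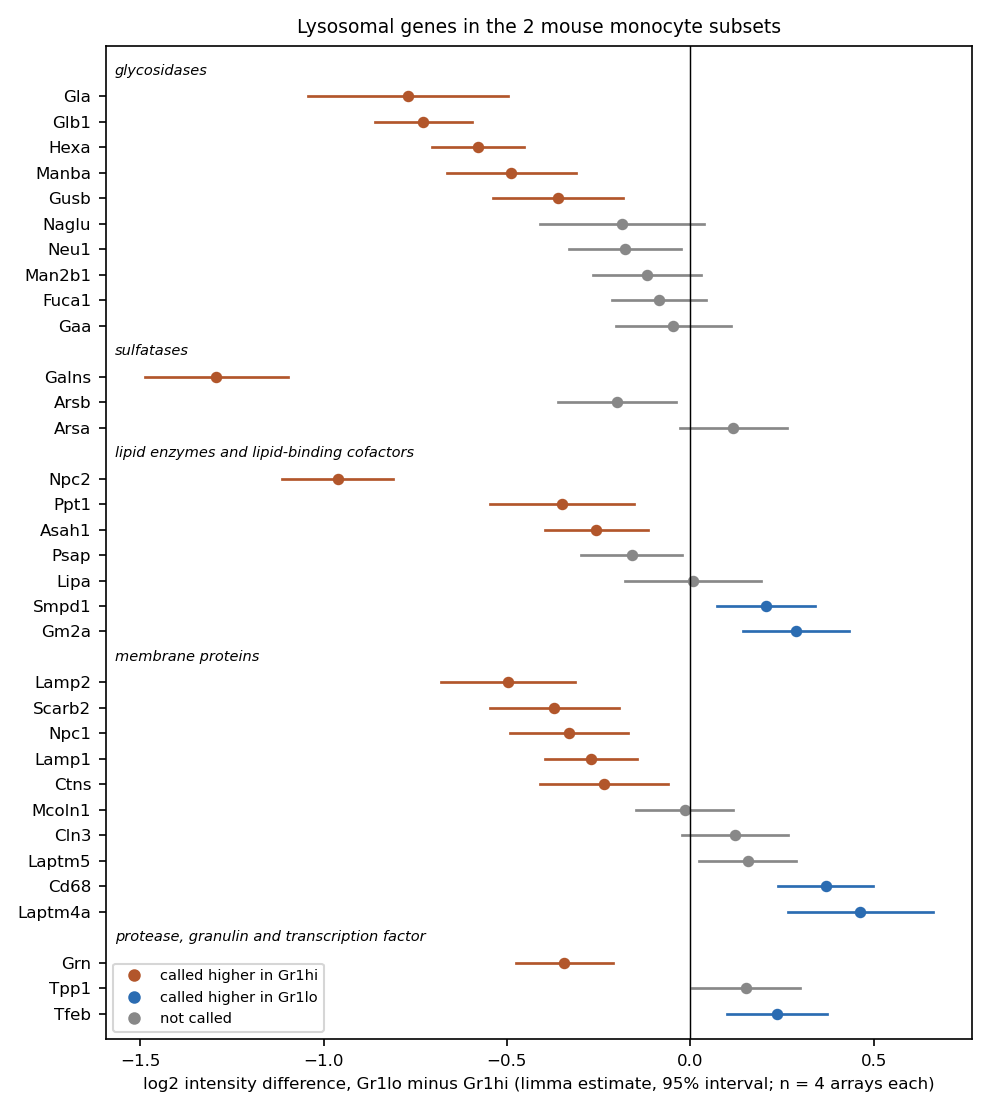
Difference of log2 intensity between the subsets (Gr1lo minus Gr1hi) for the 33 genes, by role; points are limma estimates, lines 95% intervals, 4 arrays per subset. All 10 glycosidases lie left of 0, from -0.77 to -0.05, whereas the lipid genes and membrane proteins lie on both sides.

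Promoter sequences are shown here for 6 members because TFEB and its relatives bind the E-box CACGTG. The stretches show where some of these members, called or not, carry it before their start. The RefSeq promoter table (GRCm38.p6), which gives 250 bases before to 50 after each annotated start, held 30 of the 33 members. Galns, Asah1 and Npc1, all called higher in Gr1hi, had no entry. CACGTG reads the same on both strands. It occurred in a window of 8 of these 30 genes (26.7%), namely Arsa, Cln3, Gaa, Gla, Glb1, Lamp1, Mcoln1 and Naglu, against 8.91% of 17491 protein-coding genes and 7.15% of all 32851 windows of this length in that table. The longer form TCACGTGA, which contains the core, occurred in Cln3, Gla and Mcoln1, against 1.41% of the protein-coding genes. The full palindrome GTCACGTGAC occurred in Cln3 only, against 0.469%. Each stretch below is 100 bases long and runs 5′ to 3′ on the strand of the gene, with the core in capitals. For Gla it spans 250 to 151 bases before the start, and for the others the last 100 bases before it.
Lamp1 (chr8:13159061-13159160, plus strand): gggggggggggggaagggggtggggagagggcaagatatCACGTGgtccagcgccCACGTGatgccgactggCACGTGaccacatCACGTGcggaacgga
Glb1 (chr9:114400978-114401077, plus strand): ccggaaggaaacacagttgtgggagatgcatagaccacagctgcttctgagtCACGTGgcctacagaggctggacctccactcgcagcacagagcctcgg
Gla (chrX:134601156-134601255, minus strand): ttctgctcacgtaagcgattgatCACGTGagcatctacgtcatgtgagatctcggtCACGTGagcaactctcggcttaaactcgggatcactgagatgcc
Mcoln1 (chr8:3500419-3500518, plus strand): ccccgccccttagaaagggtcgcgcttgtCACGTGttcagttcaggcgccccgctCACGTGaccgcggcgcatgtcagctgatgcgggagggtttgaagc
Npc2 (chr12:84773113-84773212, minus strand): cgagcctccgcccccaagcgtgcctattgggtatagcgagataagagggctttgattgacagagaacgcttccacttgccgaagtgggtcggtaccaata
Cd68 (chr11:69666171-69666270, minus strand): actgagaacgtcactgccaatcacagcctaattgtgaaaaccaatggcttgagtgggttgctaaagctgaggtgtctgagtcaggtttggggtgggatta

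Lamp1 holds 4 copies of the core within 61 bases of its start, Gla and Mcoln1 hold 2 each, and Glb1 holds 1. Npc2 and Cd68, called toward Gr1hi and toward Gr1lo, are shown as genes whose windows lack these letters. Of the 8 members with the core, 3 were called higher in Gr1hi (Gla, Glb1 and Lamp1), none higher in Gr1lo and 5 were not called. Gla was tested only through its Gr1hi arrays and had to differ. Among all tested genes 32.5% were called, 18.5% toward Gr1hi and 14.1% toward Gr1lo. So 3 of 8 is near the share called in either direction. All 3 were toward Gr1hi, where the share is 18.5%, and whether they exceed it was not tested. Of the 22 members whose windows lack it, 9 were called higher in Gr1hi, 5 higher in Gr1lo and 8 were not called. A match is only a run of letters and does not show that a factor binds there.

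The 8 arrays had medians from 80.6 to 83.1 on the linear intensity scale, and the standard errors of the members' differences ran from 0.06 to 0.12 (log2). The 5 measured markers known for all monocytes summed to intensities of 40576 to 42179 in the Gr1hi arrays and 40403 to 41143 in the Gr1lo arrays. Of these, Cd14 and Lyz2 were called higher in Gr1hi (differences of -1.12 and -0.25), Spi1 and Csf1r higher in Gr1lo (0.47 and 0.19), and Itgam was not called. Of the subset markers, 5 of 5 classical ones were called toward Gr1hi and 6 of 7 nonclassical ones toward Gr1lo, as the labels have it; Vcan among the classical ones was tested only through its Gr1hi arrays and had to differ. Of 9 tested neutrophil markers 4 were called higher in Gr1hi and none higher in Gr1lo, with Prtn3 tested only through its Gr1hi arrays. All 11 measured neutrophil markers, tested or not, summed to 2304 to 3151 in Gr1hi and 829 to 1161 in Gr1lo. Most of this gap lay in Mmp8, with 1071 to 1628 in Gr1hi and 73.1 to 83.8 in Gr1lo. Prtn3 came next, with 229 to 523 and 51.3 to 70.1. The other called ones were S100a8 (-1.82, limma adjusted p = 0.015), whose subsets overlapped, and Mpo (-0.24, adjusted p = 0.033). Ngp, Camp, Ltf, Elane and S100a9 overlapped between the subsets and were not called. The neutrophil markers Mmp9 and Cxcr2 lay below the table median, 81.9, which served as a stand-in for background. Of 5 tested B cell markers 2 were called higher in Gr1hi, with sums of 730 to 1173 in Gr1hi and 526 to 831 in Gr1lo. Of 2 tested NK cell markers 1 was called higher in Gr1lo. All 5 measured NK cell markers summed to 403 to 511 in Gr1hi and 559 to 721 in Gr1lo, and Ncr1, Prf1 and Eomes lay below the table median. Of 4 tested dendritic cell markers 1 was called higher in Gr1hi. All 5 measured dendritic cell markers summed to 681 to 801 in Gr1hi and 572 to 678 in Gr1lo, and Xcr1 lay below the table median. No tested T cell, tissue macrophage, platelet or red cell marker was called, but only 2 of 8 tissue macrophage markers were tested. Platelet and red cell signal varied widely between arrays. The platelet markers summed to 1591 to 4017 in Gr1hi and 1847 to 5210 in Gr1lo. The red cell markers summed to 869 to 2976 in Gr1hi and 939 to 4456 in Gr1lo. The lack of a call therefore does not show that such cells were absent. The part of such cells in the differences of the lysosomal genes was not tested.

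Glycosidases were the most uniform group: all 10 had a difference below 0 in their representing probe set, against 6085 of all 11546 tested genes. Of the 10, 5 were called higher in Gr1hi and none higher in Gr1lo, where 18.5% and 14.1% of all tested genes were called. In 10 genes, no call toward Gr1lo is near that share. The median difference of the glycosidases was -0.27. The 5 called were Gla, Glb1, Hexa, Manba and Gusb, and the 5 not called were Naglu, Neu1, Man2b1, Fuca1 and Gaa. The directions of Man2b1 and Gaa turned with other probe sets of the same genes. So did that of Fuca1, in a dim probe set that was not called (0.06, limma adjusted p = 0.65).

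Glb1 encodes beta-galactosidase, which removes galactose from the ends of gangliosides and keratan sulfate. Its intensity was 396, 367, 353 and 365 in the Gr1hi arrays (replicates 1 to 4, as in all such series) and 217, 224, 228 and 224 in the Gr1lo arrays. Every Gr1hi array lay far above every Gr1lo array, with little spread inside either subset. The difference was -0.73 ± 0.06 (log2, SE), 1.66-fold, with a limma adjusted p of 3.1e-06.

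Hexa encodes the alpha subunit of beta-hexosaminidase, the enzyme that degrades GM2 ganglioside. It stood at 3227, 3331, 3233 and 3320 in Gr1hi and at 2173, 2309, 2126 and 2171 in Gr1lo. The subsets were again well apart, and the Gr1hi values differed from each other by little. Hexa was 1.49-fold higher in Gr1hi (-0.58 ± 0.06, adjusted p = 1.3e-05 by limma).

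Gla encodes alpha-galactosidase A, which removes the terminal galactose of globotriaosylceramide. Its signal was dim, at 124, 103, 95.5 and 99.9 in Gr1hi and 70.1, 73.8, 53.1 and 52.3 in Gr1lo. All Gr1lo values lay below the table median, so Gla entered the test only through its Gr1hi arrays and had to differ. The fold is a lower bound, at least 1.28-fold higher in Gr1hi (-0.77 ± 0.12, limma adjusted p = 0.00056).

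Manba, the beta-mannosidase of N-glycan breakdown, read 609, 574, 598 and 603 in Gr1hi against 419, 477, 443 and 368 in Gr1lo. The Gr1lo arrays varied more than the Gr1hi arrays, yet no value overlapped. The difference was 1.40-fold (-0.49 ± 0.08, limma adjusted p = 0.0006). Gusb, the beta-glucuronidase that acts on several glycosaminoglycans, read 1128, 1122, 1020 and 1082 in Gr1hi and 798, 990, 827 and 787 in Gr1lo. Its nearest values, 1020 and 990, lay close together but did not cross. It was 1.28-fold higher in Gr1hi (-0.36 ± 0.08, limma adjusted p = 0.005). The second Gusb probe set overlapped between the subsets and was not called (-0.10 ± 0.08, adjusted p = 0.36).

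Among the glycosidases that were not called, the sialidase Neu1 read 381 to 440 in Gr1hi and 334 to 387 in Gr1lo. It differed by -0.18 (95% interval -0.33 to -0.03, limma adjusted p = 0.077). It passed the threshold when Gr1lo replicate 2, its highest Gr1lo array, was left out (adjusted p = 0.0476). Naglu, which acts on heparan sulfate, differed by -0.19 (95% interval -0.41 to 0.04, adjusted p = 0.21 by limma). Its Gr1hi values ran from 145 to 200 and overlapped those of Gr1lo, from 135 to 169. It too passed when its lowest Gr1hi array, replicate 4, was left out (adjusted p = 0.0364). The fucosidase Fuca1 read 1208 to 1322 in Gr1hi and 1153 to 1230 in Gr1lo, a difference of -0.09. The lysosomal alpha-mannosidase Man2b1 read 3700 to 4164 and 3455 to 3934, a difference of -0.12. Gaa, the enzyme of lysosomal glycogen breakdown, read 287 to 301 in Gr1hi and 266 to 322 in Gr1lo, a difference of -0.05. The subsets overlapped for all 3, and their 95% intervals included 0.

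Of the 3 sulfatases 1 was called higher in Gr1hi, none higher in Gr1lo and 2 were not called. Among all tested genes 18.5% were called toward Gr1hi and 14.1% toward Gr1lo. Galns, which removes sulfate from keratan sulfate and chondroitin sulfate, read 474, 429, 522 and 400 in the Gr1hi arrays and 170, 201, 189 and 183 in the Gr1lo arrays. The lowest Gr1hi value was far above the highest Gr1lo value. Galns was 2.45-fold higher in Gr1hi (-1.29 ± 0.09, limma adjusted p = 7e-07), where 3.88% of all tested genes were called with a difference of 2-fold or more. Arsa, the sulfatase of myelin sulfatide, read 404 to 445 in Gr1hi and 441 to 498 in Gr1lo and was not called (0.12, 95% interval -0.03 to 0.26, limma adjusted p = 0.22). Arsb, which acts on dermatan sulfate, did not overlap between subsets, with 315 to 357 in Gr1hi and 259 to 306 in Gr1lo, but missed the threshold (-0.20 ± 0.07, limma adjusted p = 0.06).

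**Figure D2:**
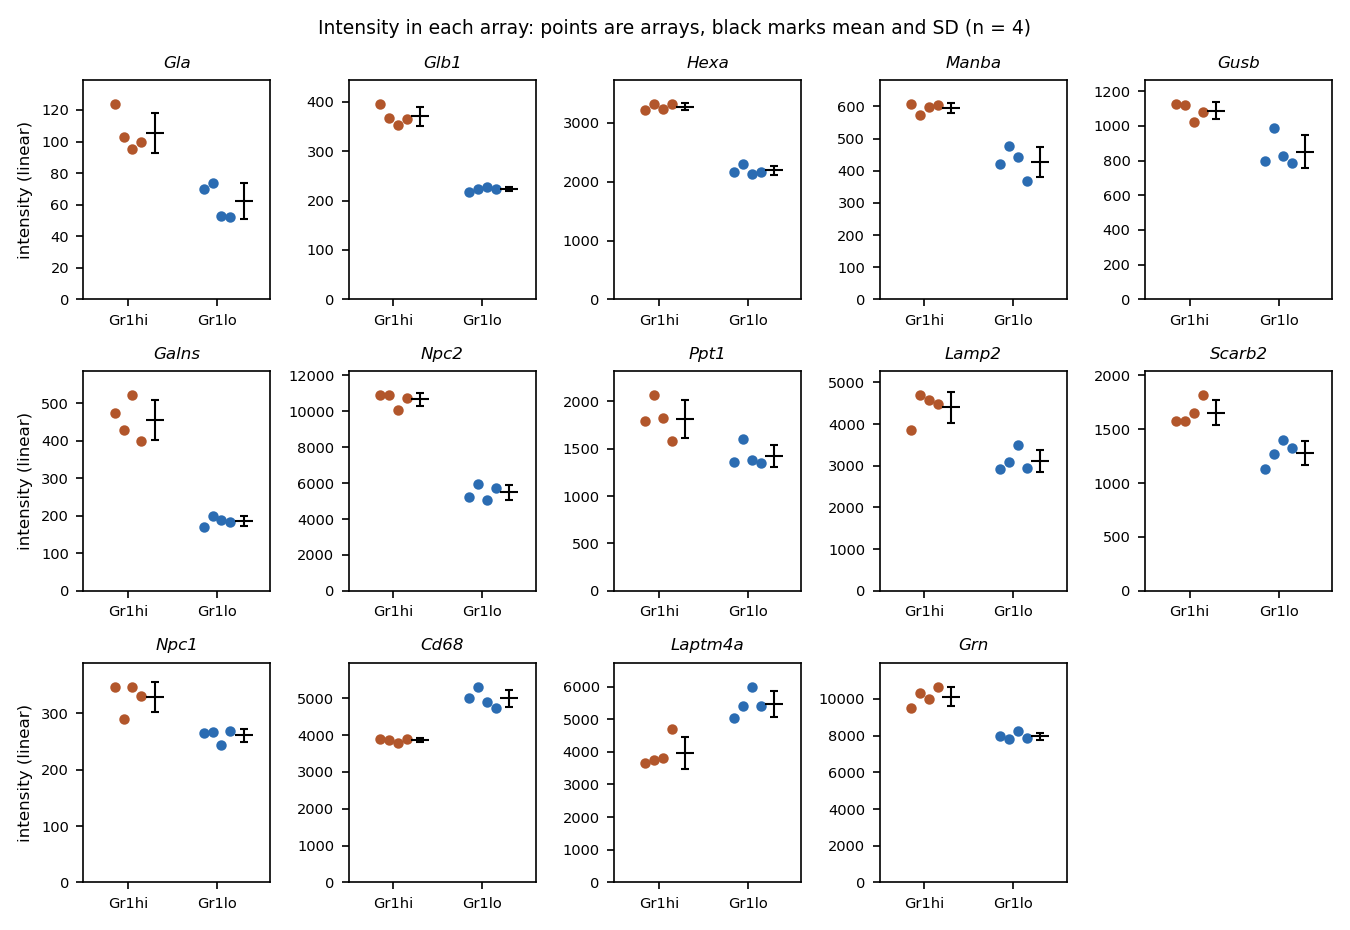
Linear probe set intensity in each array for the 14 genes called with a difference of at least 25%; points are arrays, black marks the mean and SD of 4 arrays, and each panel has its own axis from 0. The subsets overlap only for Ppt1; Cd68 and Laptm4a are higher in Gr1lo and the other 12 higher in Gr1hi.

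Lipid enzymes and lipid-binding cofactors did not share a direction: 3 of 7 were called higher in Gr1hi, 2 higher in Gr1lo and 2 not called. Among all tested genes 18.5% were called toward Gr1hi and 14.1% toward Gr1lo. The median difference of the 7 lipid genes was -0.16. Npc2, Ppt1 and Asah1 were higher in Gr1hi, Gm2a and Smpd1 higher in Gr1lo, and Psap and Lipa were not called.

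Npc2 is the soluble protein that takes cholesterol out of the lysosomal lumen and hands it to the membrane protein Npc1. Its representing probe set read 10906, 10900, 10097 and 10723 in Gr1hi and 5238, 5932, 5042 and 5711 in Gr1lo. Each Gr1hi array was far above every Gr1lo array. The difference was 1.95-fold (-0.96 ± 0.07, limma adjusted p = 1e-06). Of its other tested probe sets, 1 showed 2.18-fold (-1.12 ± 0.06) and another 3.78-fold (-1.92 ± 0.08), so the size of the Npc2 difference depended on the probe set while its direction did not.

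Ppt1, the thioesterase that strips palmitate from proteins, read 1791, 2065, 1821 and 1581 in Gr1hi and 1355, 1600, 1380 and 1350 in Gr1lo. Gr1lo replicate 2 stood above the other Gr1lo arrays and just above the lowest Gr1hi array, so the subsets overlapped. Ppt1 was 1.27-fold higher in Gr1hi (-0.35 ± 0.09, limma adjusted p = 0.011), and all 3 of its tested probe sets were called in that direction. Asah1, the acid ceramidase, was 1.19-fold higher in Gr1hi (-0.26 ± 0.06, limma adjusted p = 0.0093), with 3342 to 3617 in Gr1hi and 2699 to 3045 in Gr1lo.

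Gm2a, the activator that presents GM2 ganglioside to beta-hexosaminidase, went the opposite way to Hexa. Its representing probe set ran from 5438 to 5865 in Gr1hi and from 6360 to 7428 in Gr1lo, without overlap, a 1.22-fold difference toward Gr1lo (0.29 ± 0.07, limma adjusted p = 0.0056). The second Gm2a probe set gave a larger difference in the same direction, 1.49-fold (0.57 ± 0.09, adjusted p = 0.00042), from 1664 to 2272 in Gr1hi and from 2938 to 3086 in Gr1lo. Smpd1, the acid sphingomyelinase, was 1.15-fold higher in Gr1lo (0.21 ± 0.06, limma adjusted p = 0.023), with 406 to 458 in Gr1hi and 489 to 520 in Gr1lo. That call was lost without Gr1hi replicate 2 (adjusted p = 0.0501) or 3 (0.066) and without Gr1lo replicate 1 (0.0639) or 4 (0.0541). Smpd1's second, dim probe set was not called (0.06, adjusted p = 0.79).

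Lipa, the acid lipase that frees cholesterol and fatty acids from lipoprotein lipids, gave nearly the same values in both subsets. Its representing probe set ran from 930 to 1137 in Gr1hi and from 929 to 1135 in Gr1lo, and the difference was 0.01 (95% interval -0.18 to 0.19). All 3 of its probe sets overlapped, with differences from 0.00 to 0.02. Psap, the precursor of the saposins that assist several sphingolipid hydrolases, did not overlap in its representing probe set, with 11049 to 12401 in Gr1hi and 9894 to 10610 in Gr1lo. It differed by -0.16 (95% interval -0.30 to -0.02) and was not called (limma adjusted p = 0.075).

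Membrane proteins were also split, with 5 of 10 called higher in Gr1hi and 2 higher in Gr1lo, and a median difference of -0.13. Of all tested genes 18.5% were called toward Gr1hi and 14.1% toward Gr1lo, so the Gr1lo side was near the background. Toward Gr1hi were the structural proteins Lamp1 and Lamp2, the enzyme carrier Scarb2, the cholesterol exporter Npc1 and the cystine exporter Ctns. Toward Gr1lo were Cd68 and Laptm4a. Mcoln1, Cln3 and Laptm5 were not called.

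Lamp2, a heavily glycosylated protein of the lysosomal wall that also serves in autophagy, read 3866, 4695, 4581 and 4469 in Gr1hi and 2921, 3089, 3506 and 2953 in Gr1lo. The lowest Gr1hi array still lay above the highest Gr1lo array. It was 1.41-fold higher in Gr1hi (-0.50 ± 0.08, limma adjusted p = 0.00069), and all 4 of its probe sets were called in that direction, with differences from -0.50 to -0.22. Its relative Lamp1 differed less, by 1.21-fold (-0.27 ± 0.06, limma adjusted p = 0.0034). The Lamp1 arrays were tight, from 7929 to 8142 in Gr1hi and from 6357 to 6940 in Gr1lo.

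Scarb2 is the membrane protein that carries glucocerebrosidase to the lysosome. Its intensity was 1573, 1573, 1654 and 1817 in Gr1hi and 1131, 1270, 1397 and 1327 in Gr1lo. No value crossed, and both probe sets were called higher in Gr1hi. The representing probe set differed by 1.29-fold (-0.37 ± 0.08, limma adjusted p = 0.0038). Npc1, which receives cholesterol from Npc2, read 348, 291, 346 and 332 in Gr1hi and 265, 267, 243 and 269 in Gr1lo. Its lowest Gr1hi array, replicate 2, was only a little above the Gr1lo arrays. Npc1 was 1.26-fold higher in Gr1hi (-0.33 ± 0.07, limma adjusted p = 0.0046). Ctns was 1.18-fold higher in Gr1hi (-0.24 ± 0.08, limma adjusted p = 0.041) with overlapping values, 179 to 204 against 148 to 182. This call was lost without Gr1hi replicate 1 (adjusted p = 0.0975) or 3 (0.103) and without Gr1lo replicate 1 (0.116), 2 (0.0719) or 4 (0.098), and also with no filter on dim probe sets (0.0675).

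Cd68, the mucin-like lysosomal glycoprotein widely used as a macrophage marker, was higher in Gr1lo. It read 3905, 3882, 3795 and 3888 in Gr1hi and 5023, 5322, 4893 and 4752 in Gr1lo. The Gr1hi arrays were nearly equal and all lay well below the Gr1lo arrays. The difference was 1.29-fold (0.37 ± 0.06, limma adjusted p = 0.00054). Laptm4a, a small membrane protein of late endosomes and lysosomes, read 3647, 3750, 3802 and 4703 in Gr1hi and 5042, 5414, 6001 and 5401 in Gr1lo. Gr1hi replicate 4 stood apart from its subset but stayed below every Gr1lo array. Laptm4a was 1.38-fold higher in Gr1lo (0.46 ± 0.09, limma adjusted p = 0.0019).

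Laptm5, the member of that family found in blood cells, was not called by its brightest probe set (0.16 ± 0.06, limma adjusted p = 0.073), although its subsets did not overlap, with 9360 to 10273 in Gr1hi and 10356 to 11224 in Gr1lo. Of its other 3 tested probe sets, 2 were called higher in Gr1lo (0.42 ± 0.08 and 0.26 ± 0.08), and a dim one was not called (-0.07 ± 0.08). Mcoln1, the calcium channel of the lysosomal membrane, read 224 to 242 in Gr1hi and 217 to 240 in Gr1lo. It differed by -0.02 (95% interval -0.15 to 0.12) and none of its 3 probe sets was called. Cln3, a membrane protein mutated in a childhood form of neuronal storage disease, read 656 to 718 in Gr1hi and 717 to 810 in Gr1lo. It differed by 0.12 (95% interval -0.02 to 0.27) and was not called either.

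The last 3 members have other roles. Grn encodes progranulin, which lysosomal proteases cut into granulins. Its brightest probe set read 9506, 10332, 9993 and 10680 in Gr1hi and 7959, 7822, 8251 and 7877 in Gr1lo. All Gr1hi arrays lay above all Gr1lo arrays. It was 1.27-fold higher in Gr1hi (-0.34 ± 0.06, limma adjusted p = 0.001). That probe set can match several transcripts, and the Grn probe set without this limit gave a larger difference in the same direction, 1.57-fold (-0.65 ± 0.06, adjusted p = 1.1e-05).

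Tpp1, a peptidase that takes tripeptides off the ends of proteins, read 1022 to 1176 in Gr1hi and 1173 to 1298 in Gr1lo. It differed by 0.15 and was not called (95% interval 0.00438 to 0.299, limma adjusted p = 0.11). Tfeb, the transcription factor, was higher in Gr1lo, opposite to most of the called members. It read 419 to 477 in Gr1hi and 503 to 532 in Gr1lo, without overlap. The difference was 1.18-fold (0.24 ± 0.06, limma adjusted p = 0.012).

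Of the 33 genes 18 had more than 1 tested probe set, and none had probe sets called in opposite directions. Over the 62 tested probe sets 26 were called higher in Gr1hi and 9 higher in Gr1lo, where 15.9% and 15.2% of all 22831 tested probe sets were called, together 31.1%. The subsets did not overlap in 35 of the 62, against 31.8% of all tested probe sets. A called difference of 25% or more was seen in 22, against 21.5%, and one of 2-fold or more in 3, against 3.51%. The 11 probe sets below the filter had intensities from 13.1 to 85.5. In Man2b1 the probe sets disagreed in direction. Its brightest probe set differed by -0.12 and was not called, while another was called higher in Gr1lo (0.25 ± 0.08, limma adjusted p = 0.027). The second tested Neu1 probe set was called higher in Gr1hi (-0.22 ± 0.07, adjusted p = 0.039), in the direction of its representing probe set.

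**Figure D3:**
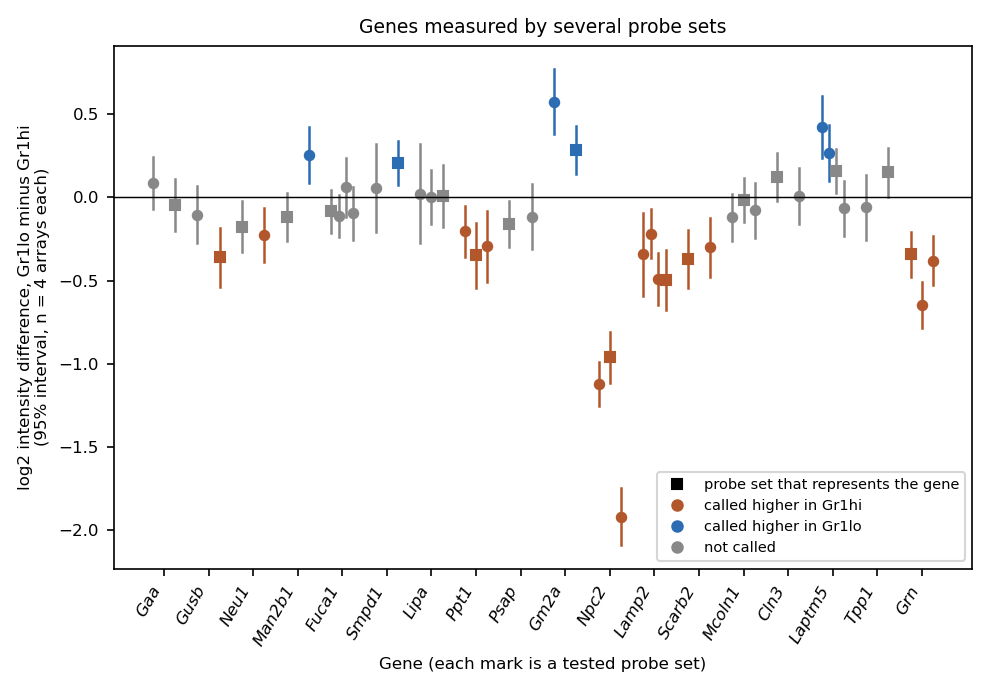
Difference of log2 intensity (Gr1lo minus Gr1hi) for each tested probe set of the 18 genes with more than 1; lines are 95% intervals, squares mark the probe set that represents the gene, 4 arrays per subset. All 4 Lamp2, 3 Ppt1, 3 Grn and 3 Npc2 probe sets are called toward Gr1hi, with the widest range for Npc2, from -1.92 to -0.96.

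Seen array by array, the members' mean deviation from each gene's average was above 0 in all 4 Gr1hi arrays, from 0.09 to 0.13 on the log2 scale, and below 0 in all 4 Gr1lo arrays, from -0.13 to -0.06. The glycosidases ranged from 0.14 to 0.25 in Gr1hi and from -0.24 to -0.10 in Gr1lo. The membrane proteins overlapped on this measure, from -0.01 to 0.06 in Gr1hi and from -0.08 to 0.01 in Gr1lo. Gr1lo replicate 2 was the Gr1lo array nearest to the Gr1hi arrays for the members as a whole. It was the highest Gr1lo array for many members, among them Gusb, Ppt1, Neu1, Hexa and Npc2. The same held for Cd68, which was higher in Gr1lo.

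**Figure D4:**
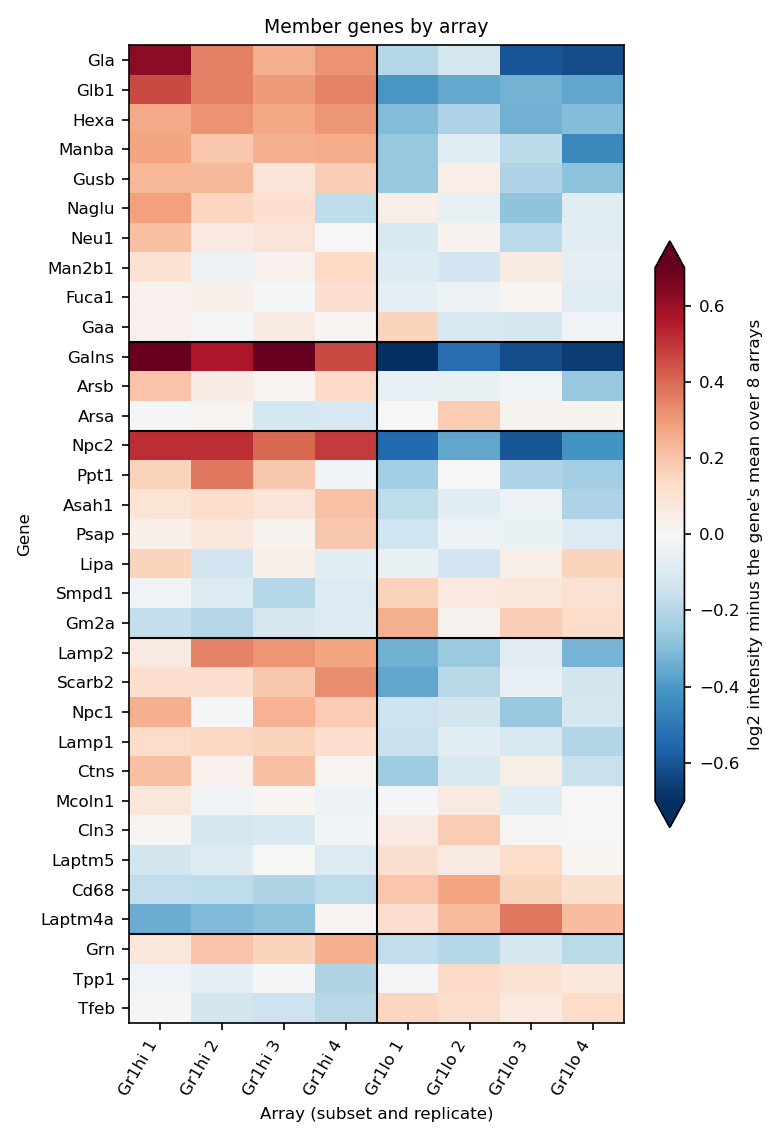
Log2 intensity of each gene's representing probe set in each array, minus the gene's mean over the 8 arrays; rows are grouped as glycosidases, sulfatases, lipid genes, membrane proteins and others, and the colour scale stops at 0.7 either way. Galns and Npc2 show the strongest contrast, and Gm2a, Smpd1, Cd68, Laptm4a and Tfeb run opposite to the rest of the called genes.

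Other lysosomal genes were counted from lists drawn up apart from the members. Of 20 tested further hydrolases and their helpers, 10 were called higher in Gr1hi and 2 higher in Gr1lo, with a median difference of -0.24. The shares over all tested genes were 18.5% toward Gr1hi and 14.1% toward Gr1lo, so the share toward Gr1lo was not above the background. Toward Gr1hi the largest were Dnase2a, the acid DNase that digests engulfed DNA (1.85-fold, -0.89 ± 0.08), and Ggh, which trims glutamate from folates (1.80-fold, -0.85 ± 0.07). Toward Gr1lo were the acid phosphatases Acp5 (3.67-fold, 1.88 ± 0.11) and Acp2 (1.82-fold, 0.87 ± 0.14).

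Of 20 tested further lysosomal membrane proteins, 8 were called higher in Gr1hi and 4 higher in Gr1lo, with a median of -0.10, against the same 18.5% and 14.1% of all tested genes. Slc29a3, a nucleoside carrier, was 2.37-fold higher in Gr1hi (-1.24 ± 0.08) and Slc36a1, an amino acid carrier, 1.52-fold (-0.60 ± 0.06). Slc11a1, the metal ion transporter that restricts microbes in phagosomes, was 2.00-fold higher in Gr1lo (1.00 ± 0.07), and Lmbrd1, which serves vitamin B12 export, 1.38-fold (0.46 ± 0.06).

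Hydrolases reach the lysosome by a mannose 6-phosphate tag. Of 9 genes of tagging and sorting 3 were called in each direction, with a median of 0.01, against 18.5% of all tested genes toward Gr1hi and 14.1% toward Gr1lo. Gnptab, which encodes the alpha and beta subunits of the enzyme that makes the tag, was 1.72-fold higher in Gr1hi (-0.78 ± 0.10), while Gnptg, its gamma subunit, was 1.46-fold higher in Gr1lo (0.55 ± 0.09). The receptor Igf2r was 1.37-fold higher in Gr1lo (0.46 ± 0.07) and the sorting receptor Sort1 1.17-fold higher in Gr1hi (-0.22 ± 0.06).

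The last list holds TFEB's relatives and the mTORC1 machinery that keeps them in check at the lysosomal surface. Of its 18 tested genes 6 were called higher in Gr1hi and 1 higher in Gr1lo, with a median of -0.16. Toward Gr1hi this is above the 18.5% of all tested genes, and toward Gr1lo below the 14.1%. The 7 calls together are a share near the 32.5% of all tested genes. A called difference of 2-fold or more was seen in 4 of the 18, Tfec among them, against 3.88% of all tested genes. Tfec, a relative of TFEB found in myeloid cells, read 168 to 259 in Gr1hi and 40.4 to 60.2 in Gr1lo, at least 2.59-fold higher in Gr1hi (-2.17 ± 0.16). All its Gr1lo values lay below the table median, so like Gla it was tested only through its Gr1hi arrays and had to differ, and its call is counted above but supports nothing. Mitf was 2.42-fold higher in Gr1hi (-1.28 ± 0.14, limma adjusted p = 2.6e-05). Tfe3 differed by -0.14 and was not called (adjusted p = 0.27). Rheb, the small GTPase that activates mTORC1, was higher in Gr1lo by 0.33 ± 0.06 (log2, SE).

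**Figure D5:**
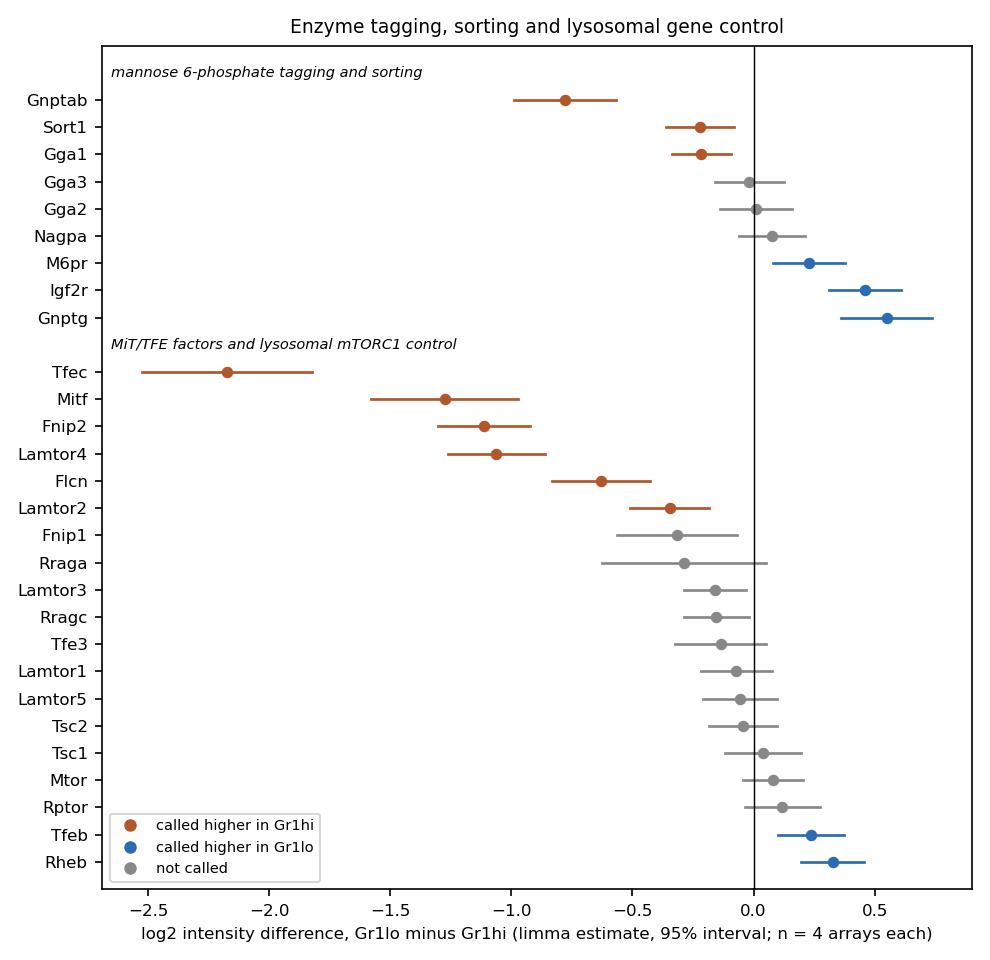
Difference of log2 intensity (Gr1lo minus Gr1hi, limma estimate with 95% interval, 4 arrays per subset) for genes of mannose 6-phosphate tagging and sorting and for TFEB, its relatives and mTORC1 control. Tfec (-2.17) and Mitf (-1.28) lie far to the left, Tfeb (0.24) and Rheb (0.33) to the right.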

How the data were processed

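The deposited values are linear probe set intensities from the authors. GCRMA and MAS5 appear in the submitters' processing notes without a role, so which one produced the values is not given in the sources used here. Per the labels' protocols, in vitro transcription ran for 64 h in place of 4 h; its effect on the values was not tested. Intensities were taken to log2 with no pseudocount. A probe set was tested if it lay over the median of all values of the probe sets that are not controls (81.9) in at least 4 of 8 arrays. The subset comparison used lmFit and eBayes of limma 3.58.1 under R 4.3.3, two-sided and without a block, p-values of the 22831 tested probe sets were adjusted together (Benjamini-Hochberg) and called under 0.05, and 95% intervals are unadjusted. A gene is represented by its tested single-symbol probe set with the highest mean over the 8 arrays. A fold is a lower bound, taken against the table median, where the dimmer mean was under it. Gene symbols are those of the platform annotation.

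The members and the lists were chosen with earlier results of these data known, so their direction is not independent evidence. Of the members, those called with a difference of at least 25% are given by array and the others by range; of each further list, the 2 called genes with the largest difference in each direction are named, and Tfe3 was added after its value was seen. The fit was also tried on 22831 simulated probe sets. It recovered 16% of those given a log2 change of 0.25 and 60% of those given 0.5. For changes of 1 and 2 it recovered 88% and 100%. Only 50 probe sets received each change, and the simulation gave 138 calls in all, against 7108 in the measured data. With so few calls the Benjamini-Hochberg threshold was harder to pass in the simulation. These shares may therefore be too low for the measured data. Alternatives were a block on the sample number, leaving out arrays, other filters, scalings, variance models, array weights, other choices of probe set and a threshold of 0.01.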

Additional observations from a re-analysis of the deposited data

Results flagged for a closer look

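In 5 of 66 groups of 4 arrays (33 genes in each subset), 1 array's gap to its nearest neighbour took up an unusually large part of the group's range on the log2 scale (over Dixon's 95% critical value). Chance flags about 1 in 20 groups. Arsa in Gr1lo replicate 2 stood at 498 above others from 441 to 448 (gap over range 0.878). Arsb in Gr1lo replicate 4 stood at 259 below others from 299 to 306 (0.861). Ppt1 in Gr1lo replicate 2 stood at 1600 above others from 1350 to 1380 (0.871). Npc1 in Gr1lo replicate 3 stood at 243 below others from 265 to 269 (0.839). Laptm4a in Gr1hi replicate 4 stood at 4703 above others from 3647 to 3802 (0.837).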

How the results depend on the processing

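Of the 20 called members, 15 kept their direction and call in every alternative that gave a value; Ctns, Gusb, Ppt1, Smpd1 and Tfeb lost the call in at least 1. Of 692 values of single genes over 21 alternatives, 637 kept direction and side of the threshold, 19 lost the call, 21 gained one and 15 turned direction. With a threshold of 0.01, called member probe sets fell from 35 to 23, members higher in Gr1lo from 5 to 3 and members higher in Gr1hi from 15 to 13; a stricter threshold makes fewer calls by construction. Leaving out 1 array gave 6229 to 6761 called probe sets in all (7108 with all arrays), 27 to 33 among the members, 14 to 16 members higher in Gr1hi and 4 to 5 higher in Gr1lo. Without both samples numbered 1, 13 and 5 members were called. Ppt1 and Ctns lost the call without both samples numbered 1, Gusb and Smpd1 with the second brightest probe set, and Smpd1 with the average; Tfeb lost it only at 0.01. Naglu, Neu1, Arsb, Psap and Laptm5 gained a call in at least 1 alternative. The cause was not tested. The stricter filter gave no value for Gla.

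The members that turned direction in these alternatives had not been called; Man2b1 was called in its turned direction with its second brightest probe set. Leaving out 1 array, Lipa ranged from -0.045 to 0.06 (0.079 without both samples numbered 1) and Mcoln1 from -0.0389 to 0.00896. Lipa also turned with median centring (-0.00125) and Mcoln1 without both samples numbered 1 (0.00855). Gaa turned without probe sets that can match several transcripts (0.0856), with the average of its probe sets (0.0197) and with its second brightest (0.0856). Laptm5 turned without probe sets that can match several transcripts (-0.0661). Man2b1 turned with the average (0.0677) and with the second brightest probe set (0.253), and Tpp1 with the second brightest (-0.0603). The cause was not tested.

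Same-numbered samples deviated from their subset means with correlations of 0.27, 0.34, -0.03 and -0.10, and not every sample correlated best with its own number, so the numbers were not taken as pairs. With the replicate block 7164 probe sets were called in all and 33 among the members, with 15 members higher in Gr1hi and 5 higher in Gr1lo.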
